A study of Homo sapiens with 35 samples.

Results

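The recovery of myeloma cells after the acute response to proteasome inhibition was described by comparing the 5 libraries labelled Day 10 with the 5 labelled Day 2, which are 10 of the 35 RNA sequencing libraries of the study. Both groups came from RPMI-8226, an established line of human multiple myeloma cells, which had received 750 nM carfilzomib, an irreversible inhibitor of the proteasome, for 1 h and had then been washed and grown without it. Libraries of day 0, whose labels list the same treatment but which the study's methods describe as collected before carfilzomib, are given beside them as a reference level (n = 5). All cultures were split from one expanded culture of a single cell line, so that the spread between libraries reflects subcultures and their libraries, and p-values say nothing of repeated experiments or other myeloma lines. Day 2 and day 10 cells were both taken right before a medium change, which was made every 48 h, and on days 6 and 8 the cell density was also adjusted. By the study's methods, day 0 cultures were adjusted in density with fresh medium before carfilzomib was added. Differences from day 0 can therefore include the age of the medium, which cannot be told apart from the treatment here. Of 19665 protein-coding entries, 17999 had a count in any library and were tested. An entry holds the counts of the protein-coding transcripts of a gene, and counts of its retained introns or other noncoding transcripts stand in entries of their own. Values are counts-per-million (CPM), the count of an entry relative to the library size after TMM normalization, in the order of replicates 1 to 5 or as mean ± SD (n = 5), and log2 changes are those of day 10 minus day 2, with their standard errors (SE). A transcript was called at Q ≤ 0.05 with a fold change above 2, whereas members of gene lists were counted at Q ≤ 0.05 alone, where Q is the adjusted p of edgeR over all 17999 transcripts.

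Plasma cells and the myeloma cells that arise from them make large amounts of immunoglobulin and depend on the proteasome to clear misfolded proteins, and to recycle their amino acids. When free amino acids run low, uncharged tRNA activates the kinase GCN2, encoded by EIF2AK4, which phosphorylates the initiation factor eIF2 and thereby favors translation of the transcription factor ATF4. ATF4 drives genes for the synthesis and import of amino acids and for the charging of tRNA, a program called the integrated stress response (ISR). Misfolded proteins act in addition through heat shock factors, which raise cytosolic chaperones, and through the unfolded protein response of the endoplasmic reticulum (ER).

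Day 2 libraries held 7211378 to 10962890 counts and day 10 libraries 6979280 to 8894446, of which 6017043 to 9307889 and 5636614 to 7351012 were protein coding. The 10 most abundant entries held 9.80% to 10.6% of protein-coding counts on day 2 and 11.4% to 13.4% on day 10. Euclidean distances between libraries, on the log2 CPM of 12301 transcripts with enough counts, were 46.3 to 52.8 within day 2 and 50.3 to 56.3 within day 10, and every pair across the days lay farther apart (70.9 to 81.5). Replicate 2 of day 10 had the lowest share of retained introns of its group (5.58%, the others 6.54% to 6.74%), and without it 1098 transcripts were called instead of 1078. All 9 plasma cell markers were detected, with a summed level of 4523 to 5361 CPM on day 2 and 7122 to 8516 CPM on day 10. Of these, 3 were higher and 4 were lower on day 10 at Q ≤ 0.05. The summed level of the 4 T cell markers was at most 2.36 CPM on day 2 and 4.83 CPM on day 10, and that of the 3 myeloid, 3 stromal and 4 erythroid markers measured did not exceed 5.88 CPM in any library of the 2 days. CD163, COL1A2 and COL3A1 were at 0 on both days, CD2 was at 0 on both, and CD3D and LYZ were at 0 on day 10. As these are bulk samples scaled to their own totals, fewer cells of a kind and less RNA per cell cannot be told apart.

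Between day 2 and day 10, 1078 of 17999 transcripts (5.99%) were called, with 616 (3.42%) rising and 462 (2.57%) falling toward day 10. Without the fold cutoff, 2968 transcripts (16.5%) were higher and 3385 (18.8%) lower. The 5 libraries of one day did not overlap with those of the other in 4838 transcripts (26.9%), among them 420 of the called higher and 396 of the called lower ones. The median log2 change over all tested transcripts was 0. Transcripts called higher had a median log2 change of 1.48, and 180 of them exceeded 4-fold. Those called lower had a median of −1.33, and 97 exceeded 4-fold. In the comparisons with day 0, which share libraries with this one, the 616 had a median of −1.71 on day 2 and −0.17 on day 10, and the 462 a median of 1.85 on day 2 and 0.42 on day 10.

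**Figure D1:**
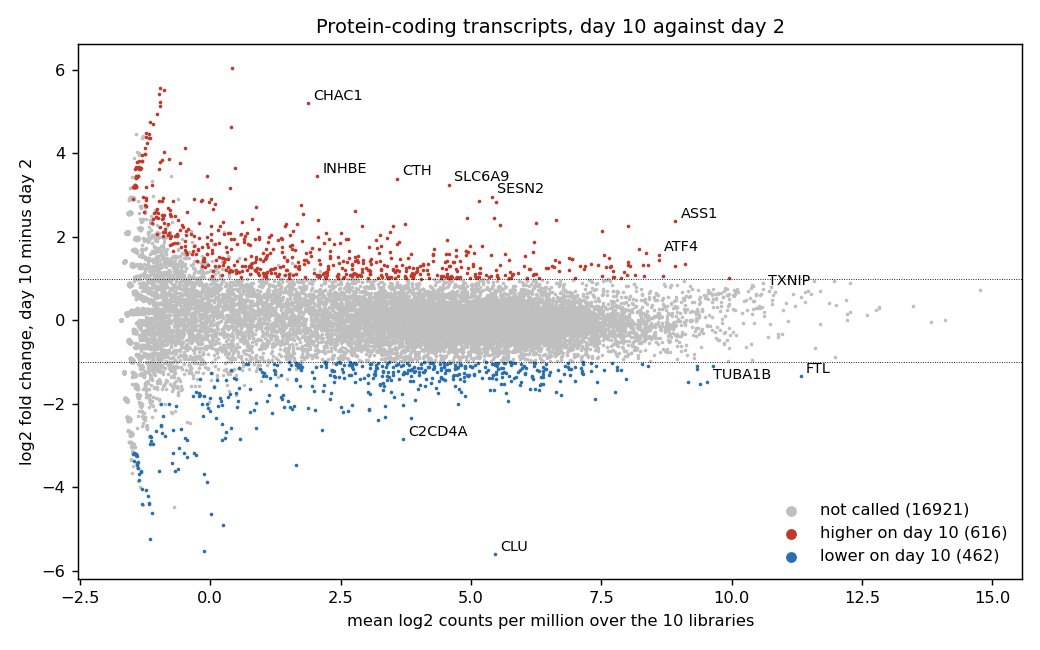
Each point is a protein-coding transcript, with the mean log2 CPM over the 10 libraries on the x axis and the log2 change (day 10 minus day 2) on the y axis. Red points (616) were higher and blue points (462) lower on day 10 at Q ≤ 0.05 with a fold change above 2 (dotted lines). CLU lies lowest among transcripts whose mean log2 CPM exceeded 2, and the ISR genes CHAC1, CTH, SESN2 and ATF4 lie on the upper side.

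The ISR list had the highest median of all 27 lists examined. Of 27 ISR genes, 23 were higher and 1 was lower on day 10 at Q ≤ 0.05, and 20 rose by more than 2-fold, with a list median of 1.57 on the log2 scale against 0 for all transcripts. Against day 0, in comparisons that share libraries with this one, the list had a median of −2.33 on day 2 and −0.50 on day 10. ATF4, the transcription factor of the pathway (chromosome 22, 39519695 to 39522683 in GRCh38), stood at 242, 225, 214, 224 and 222 CPM on day 2 and at 667, 726, 634, 692 and 617 CPM on day 10. The groups were far apart, and the log2 change was 1.57 (SE 0.06, adjusted p = 1.3e-24). Day 0 had a mean of 856 ± 49.6 CPM, above the means of both days. EIF2AK4 (chromosome 15, 39934115 to 40035591), which encodes the sensor GCN2, stood at 81.6 to 101 CPM on day 2 and at 213 to 224 CPM on day 10, a log2 change of 1.23 (SE 0.06, adjusted p = 1.3e-20). DDIT3, which encodes the transcription factor CHOP, measured 6.32, 4.50, 6.20, 4.94 and 3.15 CPM on day 2 and 26.6, 22.6, 27.0, 25.4 and 21.3 CPM on day 10. Its rise of 2.27 (SE 0.16, adjusted p = 2.7e-15) left it below the 60.8 ± 9.20 CPM of day 0.

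CHAC1, which encodes an enzyme that degrades glutathione, had the largest fold change of the list. It held 18 counts in the 5 day 2 libraries together and 574 in those of day 10, which correspond to 0.287, 0.107, 0.901, 0.463 and 0.629 CPM and to 18.6, 21.2, 18.7, 15.4 and 16.4 CPM. The log2 change was 5.20 (SE 0.24, adjusted p = 8.6e-21), and day 10 did not pass the threshold against day 0 (0.29, adjusted p = 0.14). ASNS, the asparagine synthetase, stood at 80.8, 90.4, 83.7, 94.5 and 84.8 CPM on day 2 and at 397, 412, 369, 374 and 357 CPM on day 10. All day 10 libraries were thus far above day 2, with a log2 change of 2.14 (SE 0.07, adjusted p = 8.5e-26), and below the day 0 mean of 622 ± 24.8 CPM. In the promoters of both genes, the 250 bases before the RefSeq start contain the letters of the amino acid response element bound by ATF4 and C/EBP proteins (TGATGNAA, either strand, in capitals), and they are shown because these were the members with the largest changes that contain it and have nearly all counts in their coding entry. The CHAC1 sequence is chr15:40953221-40953470 on the plus strand, and that of ASNS is chr7:97872409-97872658 on the minus strand (RefSeq, GRCh38.p14).
CHAC1: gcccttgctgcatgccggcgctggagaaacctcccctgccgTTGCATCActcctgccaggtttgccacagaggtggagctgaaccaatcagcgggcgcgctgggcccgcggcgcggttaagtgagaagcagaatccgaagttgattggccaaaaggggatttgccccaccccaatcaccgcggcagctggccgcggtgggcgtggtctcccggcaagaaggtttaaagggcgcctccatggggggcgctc
ASNS: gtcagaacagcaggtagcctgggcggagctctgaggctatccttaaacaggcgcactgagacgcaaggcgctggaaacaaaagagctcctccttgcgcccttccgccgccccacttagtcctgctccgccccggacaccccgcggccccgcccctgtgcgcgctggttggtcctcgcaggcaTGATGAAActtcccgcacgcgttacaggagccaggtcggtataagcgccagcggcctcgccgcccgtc
The same letters occur in 3.14% of all 35116 promoters of this length. Promoters were found for only 20 of the 27 ISR genes, 5 of which contain the element, and no share was read from so incomplete a match.

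Several of the largest rises in the list were enzymes of amino acid synthesis. PSAT1, which makes phosphoserine, stood at 37.9 to 46.9 CPM on day 2 and at 209 to 262 CPM on day 10 (log2 change 2.41, SE 0.09, adjusted p = 2.9e-23). PHGDH, the first enzyme of that pathway, went from 15.6 to 20.8 CPM to 79.5 to 122 CPM (2.46, SE 0.19, adjusted p = 2.2e-14). CTH, which forms cysteine from cystathionine, stood at 4.45, 3.75, 4.62, 2.31 and 2.52 CPM and then at 43.4, 39.9, 35.9, 38.7 and 33.2 CPM. With a log2 change of 3.40 (SE 0.17, adjusted p = 1.6e-19) it had the second largest rise among transcripts whose mean log2 CPM exceeded 2 and whose libraries did not overlap. SESN2, an inhibitor of mTORC1 signaling that senses leucine, went from 12.1 to 18.4 CPM to 95.8 to 140 CPM (2.96, SE 0.12, adjusted p = 1.9e-22). ASS1, the argininosuccinate synthase of arginine synthesis, had the largest rise in CPM among called transcripts, from 217, 223, 209, 206 and 209 to 1180, 1213, 1046, 1093 and 997 CPM. It remained below the day 0 mean of 2222 ± 125 CPM, by 1.01 on the log2 scale. The only member that fell was ATF5, a paralog of ATF4, from 30.3 ± 1.24 to 20.7 ± 1.10 CPM (−0.55, SE 0.08, adjusted p = 1.4e-07), and it had been at 84.0 ± 6.71 CPM on day 0. CDKN1A (−0.05), VLDLR (0.00) and FGF21 (1.39) did not pass the threshold.

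Amino acid transporters and tRNA synthetases moved with the ISR, though not as whole families. Of 17 transporters measured, 9 were higher and 4 lower on day 10, with a median of 0.52. SLC6A9, a glycine transporter, stood at 6.89, 6.65, 8.56, 8.17 and 7.87 CPM on day 2 and at 87.2, 80.0, 68.3, 65.6 and 62.1 CPM on day 10. Its log2 change was 3.25 (SE 0.13, adjusted p = 5.7e-23). SLC7A11, the cystine carrier of system xc-, went from 13.7 to 19.7 CPM to 110 to 124 CPM (2.84, SE 0.10, adjusted p = 5.8e-25). Its partner SLC3A2 rose by 1.31, the glutamine transporter SLC1A5 by 1.32 and the leucine transporters SLC7A5 and SLC43A1 by 0.95 and 1.67. SLC38A5, another carrier of glutamine, fell from 391 ± 21.7 to 222 ± 12.4 CPM (−0.82, SE 0.06, adjusted p = 1.9e-15). Of 20 cytosolic tRNA synthetases, 14 were higher and 5 lower (median 0.50). GARS, the glycyl-tRNA synthetase, went from 180 to 190 CPM to 556 to 631 CPM (1.62, SE 0.07, adjusted p = 8.8e-22). AARS, for alanine, went from 330 to 356 CPM to 800 to 994 CPM (1.34, SE 0.07, adjusted p = 7.3e-19). Against day 0, AARS did not pass the threshold on day 10 (−0.11, adjusted p = 0.24) and GARS was lower by 0.19 (adjusted p = 0.026). RARS, for arginine, fell by 0.47 (SE 0.07, adjusted p = 1.2e-07), from 81.5 ± 2.22 to 58.8 ± 6.24 CPM.

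**Figure D2:**
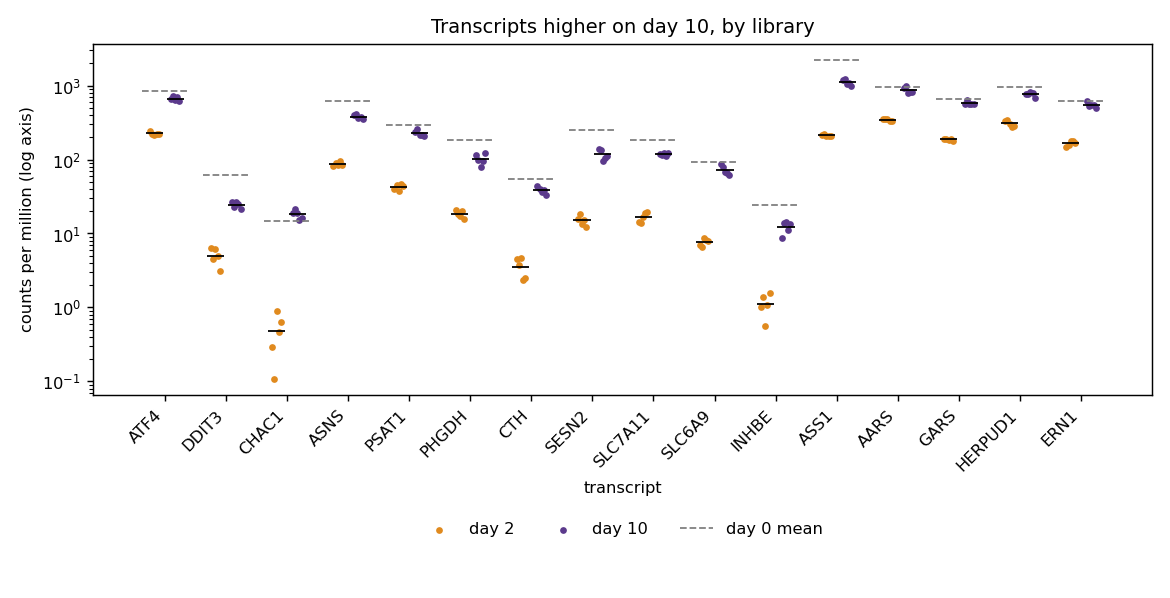
Points are the 5 libraries of day 2 (orange) and of day 10 (purple), with short lines at the group means and dashed lines at the day 0 mean. The log axis gives the CPM of 16 transcripts, which are INHBE and genes of the ISR, amino acid transport, tRNA synthetases and the ER. Day 2 and day 10 libraries do not overlap in any of them, and the day 10 mean lies below the day 0 mean in all but CHAC1. The difference between day 10 and day 0 did not pass the threshold for AARS, ERN1 and CHAC1.

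Several large rises lay outside these lists. INHBE, a subunit of the activin family, went from 1.00, 1.39, 0.563, 1.08 and 1.57 CPM to 8.79, 13.9, 14.2, 11.2 and 13.3 CPM. Its log2 change of 3.45 (SE 0.23, adjusted p = 3.3e-16) was the largest among transcripts whose mean log2 CPM exceeded 2 and whose groups were apart. INHBE lay just above that limit (2.05), and CHAC1, with a larger rise, just under it (1.87). ADM2, a peptide hormone of the calcitonin family, went from 11.3 to 14.8 CPM to 84.4 to 109 CPM, by 2.86 (SE 0.09). ZBED3 rose by 2.61, from 2.63 ± 0.770 to 16.4 ± 1.03 CPM, and PIP5KL1 by 2.45, from 13.1 ± 2.79 to 71.0 ± 11.6 CPM. KIF21B, a kinesin motor, went from 110 to 124 CPM to 510 to 641 CPM (2.26, SE 0.07, adjusted p = 9.9e-26). MYO15A rose by 2.39 in its coding entry, which held 27.9% of the counts of the gene on day 2 and 47.8% on day 10. With all its entries summed the rise was 1.59.

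Of 80 cytosolic ribosomal protein transcripts, 79 were higher and 1 was lower on day 10, with a median of 0.61, and the libraries did not overlap in 77. RPL12 had the largest change, from 722, 773, 683, 615 and 702 CPM to 1408, 1465, 1432, 1495 and 1274 CPM (1.02, SE 0.06, adjusted p = 2.3e-18). Its day 10 level did not pass the threshold against day 0 (−0.05, adjusted p = 0.51). RPL36AL, a copy of RPL36A, was the exception with a fall of 0.24 (SE 0.06, adjusted p = 0.0022). Ribosomal protein genes have many near-identical pseudogenes, so that their counts are less certain than those of single-copy genes. Ribosome biogenesis genes did not follow them, as 3 of 35 were higher and 19 lower (median −0.21). NOP16 was lowest (−0.70, adjusted p = 1.2e-09), and TAF1D highest (0.89, adjusted p = 0.011), but the coding entry of TAF1D held only 5.52% and 7.45% of its counts on the 2 days.

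Among 42 genes of ER folding and degradation, 20 were higher and 6 lower (median 0.15). ERN1, which encodes the ER stress sensor IRE1, stood at 148, 157, 178, 180 and 168 CPM on day 2 and at 616, 524, 541, 538 and 500 CPM on day 10, a rise of 1.71 (SE 0.08, adjusted p = 2.2e-20). HERPUD1, a component of ER-associated degradation, went from 279 to 347 CPM to 685 to 820 CPM (1.31, SE 0.06, adjusted p = 1.4e-20). EDEM1, SEL1L and DNAJB9, which act in the same degradation route, rose by 1.06, 0.96 and 0.83. The abundant lumenal chaperone HSPA5 rose by 0.30, whereas CALR fell by 0.29 and SDF2L1 by 0.50 (SE 0.12, adjusted p = 7.7e-04). XBP1, the transcription factor downstream of IRE1, went from 470 ± 27.4 to 422 ± 20.8 CPM with overlapping libraries. Its fall of 0.16 (SE 0.05, adjusted p = 0.017) no longer passed the threshold without replicate 2 or 3 of day 2 or without replicate 1 or 5 of day 10 (−0.13 to −0.11).

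The mitosis list had the lowest median of the lists. All 42 mitosis genes were lower on day 10 at Q ≤ 0.05 (median −1.03), as were 44 of 45 genes of DNA replication and S phase (median −0.94), and none was higher. These are transcript levels and not rates of proliferation. The study's own cell cycle analysis of this line by flow cytometry placed the low point of proliferation on day 2, with a rise by day 4. The study also found cell cycle pathways enriched mainly in a single cluster of its RNA sequencing time course. It read this as proliferation starting again in early recovery. How the transcripts of days 2 and 10 relate to the flow cytometry was not tested. FOXM1, a transcription factor of mitotic genes, stood at 86.4, 85.5, 86.8, 83.7 and 76.8 CPM on day 2 and at 24.0 to 34.5 CPM on day 10. Its fall of 1.53 (SE 0.11, adjusted p = 2.2e-14) was the largest of the mitosis list, and that of the kinesin CENPE, by 0.58 (SE 0.11), the smallest. MKI67, the proliferation antigen Ki-67, measured 152, 153, 180, 176 and 175 CPM on day 2 and 84.4, 77.7, 73.0, 75.6 and 98.8 CPM on day 10. The groups were apart, with a log2 change of −1.03 (SE 0.09, adjusted p = 4.5e-12), and both were above the 40.6 ± 5.82 CPM of day 0. CDC20, an activator of the anaphase-promoting complex, and HMMR, a protein of the mitotic spindle, fell by 1.36 and 1.37. RRM2, a subunit of ribonucleotide reductase, and UHRF1, which maintains DNA methylation during replication, fell by 1.72 and 1.73. PCNA, the sliding clamp, fell by 0.94 from 165 to 85.7 CPM, a mean below that of day 0 (169 CPM). The lists as a whole stayed above day 0. Against day 0, the DNA replication list had a median of 1.55 on day 2 and 0.69 on day 10. The mitosis list had 2.04 and 0.95. PRIM1, a primase subunit, did not pass the threshold (−0.11, adjusted p = 0.41), but was lower with all its entries summed (−0.24, adjusted p = 0.011).

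ORC6 and ESCO2, which act at replication origins and in sister chromatid cohesion, were among the largest falls of all. ESCO2 went from 19.4, 20.8, 19.6, 22.8 and 18.7 CPM to 4.40, 2.84, 6.30, 5.81 and 5.29 CPM (−2.04, SE 0.17). ORC6 fell by 2.11 in its coding entry, which held 38.1% of the counts of the gene on day 2 and 16.2% on day 10, and by 0.93 with all entries summed. SAMHD1, which degrades deoxynucleotides, fell by 2.63 (SE 0.54, adjusted p = 1.1e-04), with 20.0% and 5.77% of its counts in the coding entry, and by 0.85 with all entries summed. TUBA1B, an alpha-tubulin, went from 1283, 1321, 1226, 1195 and 1172 CPM to 410, 461, 434, 441 and 473 CPM (−1.48, SE 0.06, adjusted p = 7.2e-22).

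Promoters of cell cycle genes are shown for the elements that many genes of these lists contain. Promoters of the 250 bases before the start were found for 37 of the 42 mitosis genes, and 22 of these (59.5%) contain the CHR element TTTGAA and 30 (81.1%) the CCAAT box, on either strand. All promoters of this length contain them at 13.3% and 32%. The E2F letters TTTNNCGC were found for 18 of 39 DNA replication genes (46.2%) and 5.92% of all promoters. Among tested transcripts, of which 14054 of 17999 had a promoter in this incomplete match, CHR, CCAAT and E2F letters occur at 13.3%, 40.8% and 9.90%. A match is a description of the letters and not evidence of binding. CCAAT and CHR matches can adjoin or overlap. HMMR (chr5:163460382-163460631, plus strand) and CDC20 (chr1:43358731-43358980, plus strand) contain CHR and CCAAT letters in capitals, and UHRF1 (chr19:4909251-4909500, plus strand) the E2F letters (RefSeq, GRCh38.p14).
HMMR: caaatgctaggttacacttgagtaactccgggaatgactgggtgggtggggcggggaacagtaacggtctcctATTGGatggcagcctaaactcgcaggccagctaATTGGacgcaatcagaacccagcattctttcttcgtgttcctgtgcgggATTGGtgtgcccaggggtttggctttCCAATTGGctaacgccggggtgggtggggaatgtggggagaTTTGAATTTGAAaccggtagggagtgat
CDC20: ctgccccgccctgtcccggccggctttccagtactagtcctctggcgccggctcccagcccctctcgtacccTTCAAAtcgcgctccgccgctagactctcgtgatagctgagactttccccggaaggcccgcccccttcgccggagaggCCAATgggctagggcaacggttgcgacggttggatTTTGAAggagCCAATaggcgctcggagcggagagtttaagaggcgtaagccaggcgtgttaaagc
UHRF1: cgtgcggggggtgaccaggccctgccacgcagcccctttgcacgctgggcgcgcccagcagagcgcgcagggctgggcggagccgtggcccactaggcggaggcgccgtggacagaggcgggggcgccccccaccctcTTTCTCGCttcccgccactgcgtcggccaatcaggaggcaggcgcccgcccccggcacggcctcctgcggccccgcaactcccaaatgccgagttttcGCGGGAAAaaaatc

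Cytosolic chaperones fell as a group, with 18 of 22 lower and 1 higher on day 10 (median −0.65). HSPA8, the constitutive HSP70, stood at 927, 985, 970, 1002 and 939 CPM on day 2 and at 390, 449, 444, 422 and 435 CPM on day 10. Its fall of 1.17 (SE 0.07, adjusted p = 2.2e-18) brought it to within 0.05 of day 0 on the log2 scale (adjusted p = 0.67). HSP90AA1, the inducible HSP90, went from 926 to 970 CPM to 398 to 464 CPM (−1.10, SE 0.05, adjusted p = 7e-20). HSPA4L, an HSP110 family member, had the largest fall of the list, from 12.5 ± 1.20 to 2.79 ± 0.718 CPM (−2.17, SE 0.22). HSPH1 and BAG3, a further HSP110 protein and a cochaperone, fell by 1.10 and 0.89. HSPA6, which is strictly stress inducible, stood at 1.09 ± 0.643 and 1.89 ± 0.942 CPM and did not pass the threshold (0.81, adjusted p = 0.14). The heat shock element, searched on both strands with a single spelling of its repeats, was found in the promoters of 6 of 19 chaperone genes (31.6%) and in 0.441% of all promoters. HSPA8 contains it more than once and is shown with these letters in capitals (chr11:123062137-123062386, minus strand, RefSeq, GRCh38.p14).
HSPA8: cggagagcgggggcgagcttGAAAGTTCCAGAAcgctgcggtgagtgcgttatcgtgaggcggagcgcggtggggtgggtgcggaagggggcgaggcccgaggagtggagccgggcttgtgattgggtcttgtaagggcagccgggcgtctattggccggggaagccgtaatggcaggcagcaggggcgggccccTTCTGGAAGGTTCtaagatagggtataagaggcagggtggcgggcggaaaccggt

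Proteasome and NRF2 target transcripts fell less than the chaperones between day 2 and day 10. On day 1, their list medians had stood 1.53 and 1.39 above day 2 on the log2 scale. Against day 0, their medians on day 10 were 0.04 and 0.11. Of 33 subunits of the 19S and 20S particles, 22 were lower and none was higher on day 10 (median −0.25). PSMD1, the largest subunit of the 19S base, went from 129, 134, 131, 145 and 129 CPM to 68.4, 80.8, 75.6, 79.8 and 88.1 CPM (−0.77, SE 0.07, adjusted p = 4.6e-12). PSMD9, an assembly chaperone of the same base, did not pass the threshold, with 8.09 ± 0.347 and 7.77 ± 2.13 CPM and overlapping libraries (−0.07, adjusted p = 0.87). The coding entry of PSMD9 held only 23.0% and 22.4% of its counts, and all entries summed did not pass either (−0.07, adjusted p = 0.52). PSMA5 had the highest log2 change of the list (0.23, adjusted p = 0.75), but its coding entry held only 2.56% and 3.65% of its counts, and with all entries summed it was lower (−0.32). Of 20 targets of NRF2, the regulator of the antioxidant response, 12 were lower and 3 higher (median −0.37). FTL, the ferritin light chain, stood at 4294, 4413, 3988, 3967 and 3706 CPM on day 2 and at 1555, 1670, 1626, 1724 and 1485 CPM on day 10, the largest fall in CPM among called transcripts. Its log2 change was −1.34 (SE 0.07, adjusted p = 2.2e-19). HMOX1, the inducible heme oxygenase, went from 10.6, 14.6, 10.8, 20.1 and 11.3 CPM to 6.51, 6.11, 4.52, 7.03 and 6.10 CPM (−1.14, SE 0.19, adjusted p = 4.8e-06). NQO1, a quinone reductase, fell by 1.22. The 3 members that rose were SLC7A11, SQSTM1 (0.49) and GCLC (0.17), of which SLC7A11 is also an ISR gene.

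Sterol and fatty acid synthesis showed the same direction, with 26 of 30 genes lower and 2 higher (median −0.75). FASN, the fatty acid synthase, went from 1127 to 1193 CPM to 459 to 612 CPM (−1.09, SE 0.07, adjusted p = 1.2e-16). The genes of the transcription factors themselves, SREBF1 and SREBF2, rose by 0.42 (SE 0.05, adjusted p = 1.1e-08) and 0.21, and SCD, the stearoyl-CoA desaturase, did not pass the threshold (−0.07, adjusted p = 0.34).

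Of 38 nuclear complex I genes, 30 were lower and none was higher (median −0.50), and of 77 mitochondrial ribosomal proteins, 43 were lower and 3 higher (median −0.29). NDUFA4 went from 180, 181, 160, 170 and 162 CPM to 75.8, 77.4, 80.9, 82.1 and 78.3 CPM (−1.11, SE 0.07, adjusted p = 1.9e-16). It was the only member of the complex I list that fell by more than 2-fold, but despite its name the protein is assigned to complex IV. NDUFS4 was the highest complex I gene and did not pass the threshold (0.23, adjusted p = 0.10). MRPL1 fell by 1.08 (SE 0.15, adjusted p = 1.1e-07), and MRPL45 rose by 0.40 (SE 0.07). Among the 13 messenger RNAs of the mitochondrial genome, 3 were higher and none was lower (median 0.19), where 16.5% of all transcripts were higher. MT-ND6 went from 1887, 1943, 1873, 1879 and 1614 CPM to 2419, 2931, 2077, 2566 and 2251 CPM (0.41, SE 0.10, adjusted p = 4.9e-04), while MT-ND3 stood at −0.22 (adjusted p = 0.075) and passed as lower with all entries summed (−0.26, adjusted p = 0.018), without replicate 2 of day 10 (−0.28), with only days 2 and 10 fitted (−0.20) and without factors (−0.29). The number of higher ones was 5 without replicate 3 of day 10, 2 without replicate 2 of day 10 and 2 without replicate 5 of day 2.

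Glycolysis enzymes were lower in 14 of 19 and higher in 1 (median −0.40). PGAM1 and PKM, phosphoglycerate mutase and pyruvate kinase, fell by 1.10 and 0.88, and PFKFB4, a regulator of phosphofructokinase, by 1.19 (SE 0.16, adjusted p = 5.2e-08). ALDOC alone rose (0.30, SE 0.07, adjusted p = 5.2e-04). Of 18 genes of glucose uptake and its MondoA regulator, 5 were higher and 6 lower (median −0.01). TXNIP, a MondoA target that limits glucose uptake, stood at 1478, 1068, 1042, 997 and 1408 CPM on day 2 and at 1946, 1843, 2152, 2188 and 1992 CPM on day 10. It rose by 0.76 (SE 0.09, adjusted p = 2.1e-09) from a level that was already above the 362 ± 28.2 CPM of day 0. The glucose transporter SLC2A1 fell by 0.54 (SE 0.15, adjusted p = 0.0032) and SLC2A6 by 0.96, whereas SLC2A3 rose by 1.75 (SE 0.24, adjusted p = 8.2e-08), from 4.38 ± 0.786 to 14.6 ± 2.18 CPM. The coding entry of SLC2A1 held 48.2% and 47.8% of its counts, and the log2 change with all entries summed was −0.56. Fatty acid oxidation genes were higher in 3 and lower in 11 of 29 (median −0.07). ACSL5 fell by 0.71 and ACAD11 rose by 1.05, with 24.7% and 29.8% of the counts of ACAD11 in its coding entry.

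**Figure D3:**
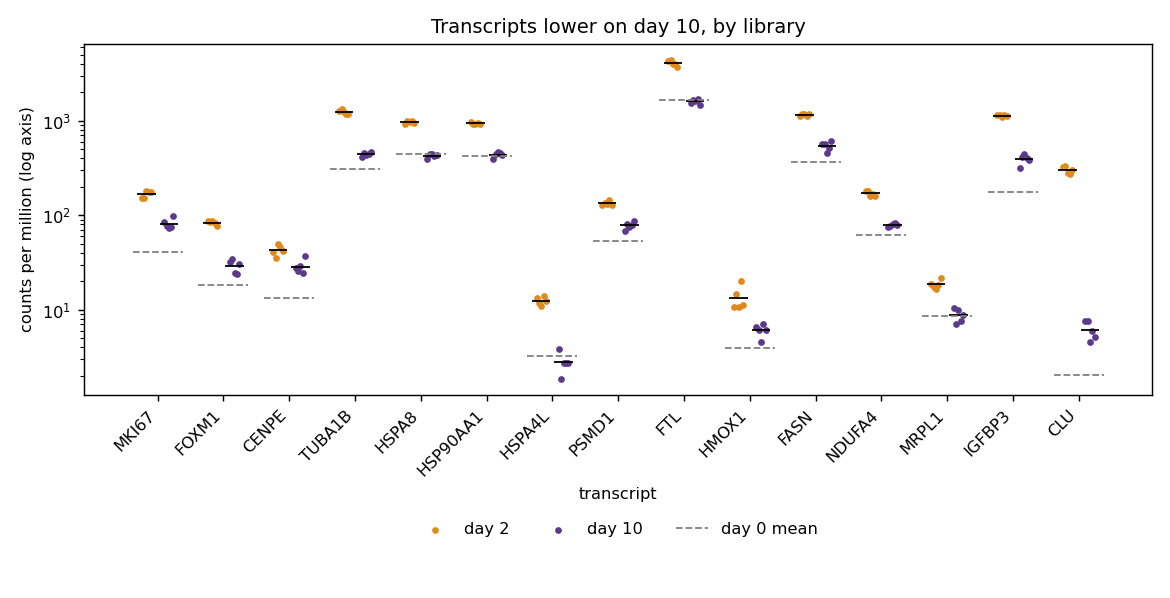
Points are the 5 libraries of day 2 (orange) and of day 10 (purple), with short lines at the group means and dashed lines at the day 0 mean. The log axis gives the CPM of 15 transcripts, which are IGFBP3, CLU and genes of the cell cycle, chaperones, proteasome, NRF2, lipid synthesis and mitochondria. All fell at Q ≤ 0.05. CLU spans the widest range, with group means of 303 and 6.17 CPM.

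CLU, which encodes the extracellular chaperone clusterin, had the largest fall of all transcripts whose mean log2 CPM exceeded 2. It stood at 321, 331, 283, 275 and 304 CPM on day 2 and at 7.56, 7.67, 4.52, 5.96 and 5.13 CPM on day 10, a log2 change of −5.61 (SE 0.13, adjusted p = 5.1e-31). Days 4, 6 and 8 had 99.3 ± 7.11, 36.9 ± 3.48 and 15.2 ± 4.49 CPM, and 2.04 ± 1.20 CPM had been measured on day 0. The coding entry of CLU held 96.7% of the counts of the gene on day 2 and 66.2% on day 10. With all its entries summed the log2 change was −5.10. C2CD4A went from 37.2, 27.5, 34.9, 33.9 and 35.2 CPM to 5.10, 3.12, 5.17, 5.20 and 4.81 CPM (−2.85, SE 0.20, adjusted p = 3.6e-15). Secreted and surface proteins were represented by OLFML2B (−2.40), TNFRSF8, which encodes CD30 (−2.32), and APLN, the peptide apelin (−2.14), with day 2 means of 21.0, 21.9 and 16.8 CPM. PCP4, a calmodulin regulator, fell by 2.09 from 11.2 ± 2.25 to 2.60 ± 0.596 CPM. KRT86 and KRT6C, keratins of families with near-identical copies, fell by 2.34 and 2.19. IGFBP3, a secreted binding protein of insulin-like growth factors, went from 1157, 1154, 1098, 1156 and 1118 CPM to 317, 419, 444, 408 and 388 CPM (−1.52, SE 0.09, adjusted p = 4.1e-18). PRSS2, trypsin 2, which also has close paralogs, went from 863 to 1057 CPM to 287 to 384 CPM (−1.47, SE 0.08). It ended below its day 0 mean of 800 ± 57.7 CPM, by 1.22 on the log2 scale (adjusted p = 1.3e-15).

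Genes of antigen presentation and of interferon and NF-kappaB signaling did not move as one. Of 42 MHC class I and interferon-response genes, 14 were higher and 10 lower (median −0.05). HLA-E, a nonclassical class I molecule, went from 230, 267, 235, 204 and 247 CPM to 630, 701, 680, 658 and 577 CPM (1.45, SE 0.06, adjusted p = 3.3e-22). HLA-B and B2M rose by 0.72 and 0.40, whereas the immunoproteasome subunits PSMB8 and PSMB9 fell by 0.52 and 0.53. OAS3, an interferon-induced antiviral enzyme, fell from 5.55 ± 0.865 to 1.32 ± 0.158 CPM (−2.05, SE 0.27, adjusted p = 2.5e-08). Of 29 NF-kappaB genes, 13 were higher and 3 lower (median 0.17). RELB and BCL3, a subunit and a coactivator, rose by 1.18 and 1.31. The chemokine CCL3 held 22 counts on day 2 and 125 on day 10 (2.71, SE 0.41, adjusted p = 5.6e-07), far from the 63.0 ± 14.6 CPM of day 0. CXCL8, the chemokine interleukin-8, fell by 1.45 (SE 0.19, adjusted p = 2.6e-08), from 24.1 ± 1.95 to 8.81 ± 1.36 CPM.

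Immediate-early genes were higher in 18 and lower in 4 of 31 (median 0.40). EGR1 measured 0.617 to 1.58 CPM in the day 2 libraries and 4.52 to 7.53 CPM in those of day 10, a rise of 2.14 (SE 0.32, adjusted p = 7e-07), and NR4A3 did not pass the threshold (−0.51, adjusted p = 0.22). MYC rose by 0.40 (SE 0.06, adjusted p = 4.3e-07). Against day 0, the list had a median of −1.84 on day 2 and −1.40 on day 10, in comparisons that share libraries with this one. The p53 target and growth-arrest genes were higher in 12 and lower in 5 of 33 (median 0.04), with medians of −1.45 and −1.07 against day 0. Their extremes were SESN2, given above, and CDKN1C, a cyclin-dependent kinase inhibitor, which fell from 79.0 ± 9.77 to 32.9 ± 1.02 CPM (−1.27, SE 0.13, adjusted p = 1.4e-10). Of 16 BCL2 family genes, 8 were higher and 3 lower (median 0.19), and they included members of both functions. BBC3, the proapoptotic protein PUMA, went from 5.17, 5.36, 6.20, 5.86 and 6.45 CPM to 28.1, 31.0, 29.7, 29.2 and 24.7 CPM (2.30, SE 0.12, adjusted p = 4.9e-19). Its day 0 level had been 137 ± 8.20 CPM. PMAIP1 and BMF, also proapoptotic, rose by 1.56 and 1.01, and the antiapoptotic BCL2 and MCL1 by 1.07 and 0.57 (for MCL1, SE 0.05, adjusted p = 4.9e-13). BCL2L1, which encodes the antiapoptotic BCL-XL, fell from 139 ± 5.98 to 71.2 ± 4.88 CPM (−0.97, SE 0.06, adjusted p = 4.6e-16), below the 105 ± 9.56 CPM of day 0.

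Plasma cell identity genes were higher in 16 and lower in 7 of 33 (median 0.32). IRF4, a transcription factor on which myeloma cells depend, stood at 328, 315, 320, 319 and 318 CPM on day 2 and at 468, 415, 431, 434 and 489 CPM on day 10 (0.48, SE 0.06, adjusted p = 5.5e-08). JCHAIN, the joining chain of polymeric immunoglobulin, rose by 0.94, and CD79A, of the B cell receptor, by 2.43 (SE 0.30, adjusted p = 1.2e-08) from 22 to 102 counts. NCAM1, which encodes the adhesion molecule CD56, fell from 44.2 ± 4.81 to 14.9 ± 1.92 CPM (−1.57, SE 0.10, adjusted p = 5.5e-16), and SDC1, which encodes CD138, by 0.37. Of 45 lysosome and autophagy genes, 18 were higher and 11 lower (median 0.10), with GABARAPL1 (1.45, adjusted p = 4.2e-07) highest among members with enough counts and MCOLN1 lowest (−0.89, adjusted p = 1.0e-05). Metallothioneins and zinc transporters were lower in 2 of 12 and higher in none (median −0.11), with MT1G at −1.93 (adjusted p = 1.7e-06) and MT2A at 0.68 (adjusted p = 0.54). Of 17 measured markers of T cells, myeloid, stromal and erythroid cells, 1 was higher, CD3E (1.51, from 42 to 101 counts), and 2 were lower (median −0.31), with HBA2 at −1.31 (adjusted p = 0.17). Neither the metallothionein and zinc transporter counts nor the marker counts exceeded the shares over all transcripts, of which 16.5% were higher and 18.8% lower.

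**Figure D4:**
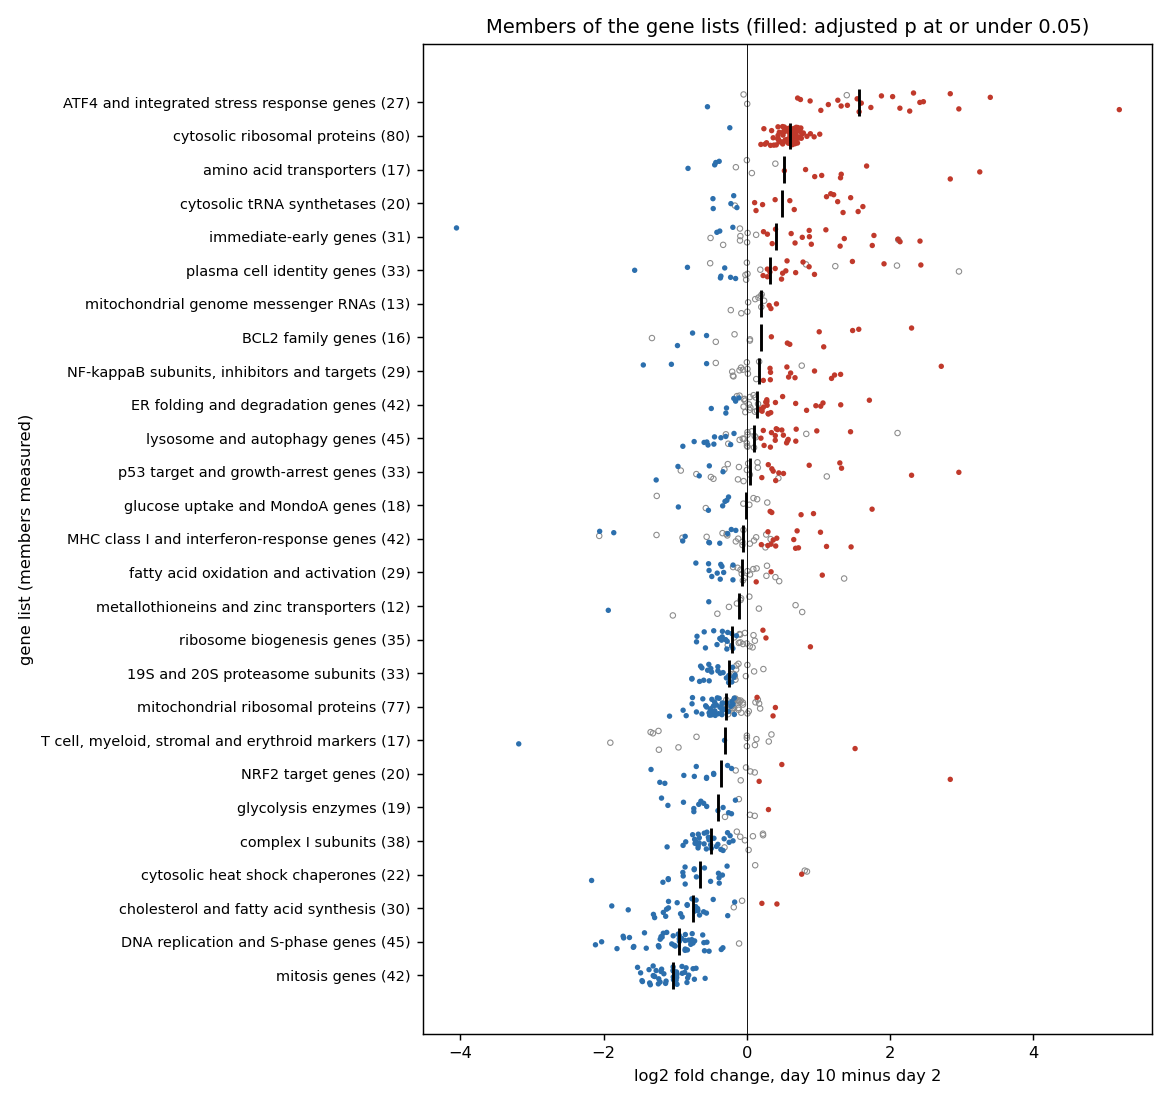
Each row is a gene list with its number of measured members, ordered by its median (black bar), and each point is a member at its log2 change (day 10 minus day 2). Filled points passed Q ≤ 0.05 (red higher, blue lower), and open points did not. The ISR list has the highest median (1.57) and the mitosis list the lowest (−1.03).

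The days between showed when these levels were reached. Among the 472 called higher transcripts with enough counts, the median share of the day 2 to day 10 difference that was present on day 4 was 68.6%, and it was 104% on day 6 and 90.6% on day 8. For the 395 called lower transcripts the shares were 57.3%, 94.4% and 80.4%. Both directions thus stood closer to the day 10 level on day 6 than on day 8. The median of the ISR list was 1.06 above day 2 on day 4 and then stood at 1.88, 1.15 and 1.56 on days 6, 8 and 10. ASNS passed through 188 ± 17.6, 341 ± 32.5 and 193 ± 19.5 CPM on days 4, 6 and 8 before it reached 382 ± 22.1 CPM, and PSAT1 through 105 ± 15.3, 168 ± 18.5 and 95.4 ± 14.9 CPM before 227 ± 21.7 CPM. DNA replication genes were lowest on day 6 (−1.36) and higher again on day 10 (−0.95). The density of the cultures was adjusted on days 6 and 8, and its part in these levels was not tested.

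**Figure D5:**
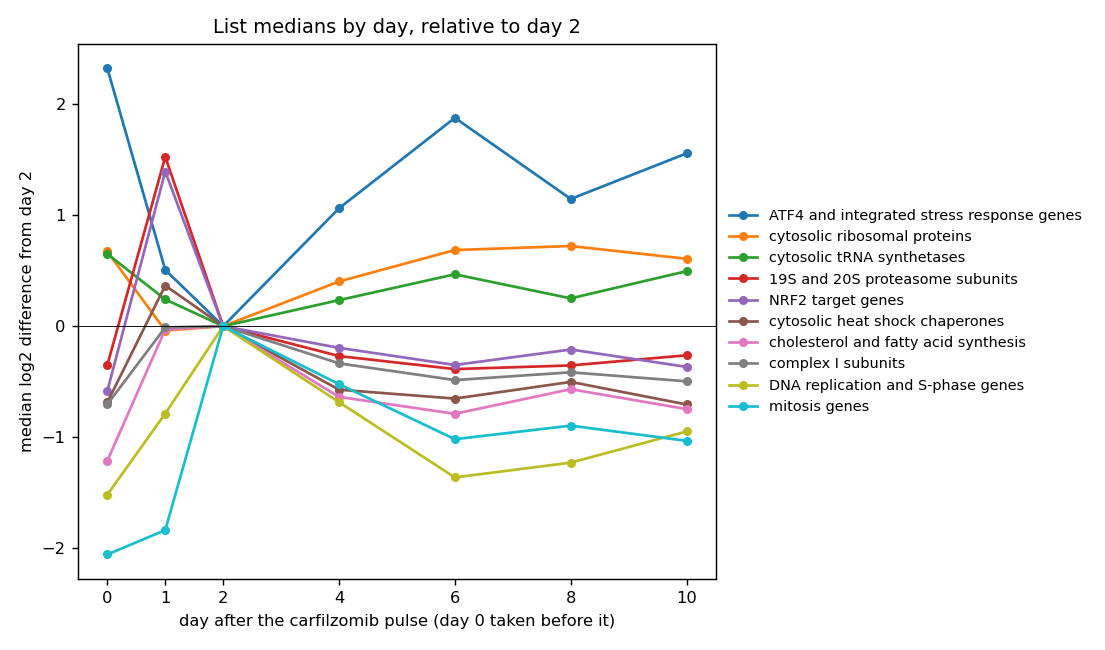
Lines give the median log2 difference from day 2 over the members of 10 gene lists with enough counts, by day after the carfilzomib pulse, with day 0 before it. The ISR list is at 1.06, 1.88, 1.15 and 1.56 on days 4, 6, 8 and 10, while mitosis and DNA replication genes stay below 0 from day 4.

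Counts also shifted between kinds of entries. The share of all counts in protein-coding entries averaged 84.1% ± 0.75 in day 2 libraries and 81.1% ± 0.92 in those of day 10 (SD, n = 5 each, exact permutation test, two-sided, p = 0.00794, adjusted p = 0.0185), and 0.00794 is the smallest p that 5 against 5 libraries allow. Retained introns rose from 5.18% ± 0.44 to 6.43% ± 0.48 with overlapping libraries (exact permutation test, p = 0.0159, adjusted p = 0.0278). Constant genes of immunoglobulins held 1.18% ± 0.089 on day 2 and 1.82% ± 0.16 on day 10 (exact permutation test, p = 0.00794, adjusted p = 0.0185). Most of these were counts of the lambda light chain gene IGLC2, which held 0.987% and 1.53% of all counts and whose constant genes are near-identical copies. Mitochondrial ribosomal RNA held 0.694% ± 0.035 and 0.975% ± 0.081 (exact permutation test, p = 0.00794, adjusted p = 0.0185). The remaining 3 of the 7 kinds tested, nonsense-mediated decay transcripts, processed transcripts and lincRNA, did not pass the threshold with all libraries (exact permutation test, adjusted p = 0.139, 0.139 and 0.198), and passed it without replicate 2 of day 10 (exact permutation test, adjusted p = 0.0222, 0.0238 and 0.0238).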

How the data were processed

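RNA sequencing of RPMI-8226 cells was analysed on days 2 and 10, with day 0 as reference. The authors deposited estimated counts per gene symbol and transcript biotype, as whole numbers not scaled to library size, which they made with Kallisto 0.44.0 on GENCODE release 28 (GRCh38.p12) with GC adjustment and tximport. Versions are from the submitters' processing notes where these name them. From these counts, quasi-likelihood tests were run here with edgeR 4.0.16 in R 4.3.3 (TMM, day as factor over all 35 libraries, Benjamini–Hochberg adjustment) and tested on simulated data first. Levels are counts-per-million values (CPM). Shares of counts by kind of entry were compared with exact permutation tests that took the libraries as unpaired. Alternatives included DESeq2 1.42.0, a replicate block and, added after seeing the data, all entries of a gene summed. The gene lists and members were chosen with earlier results of these data known. Genes named were the 12 largest rises and falls with mean log2 CPM above 2 and groups apart, the 8 largest rises and falls in CPM, both among called transcripts, the highest and lowest of each list with enough counts (filterByExpr), and 15 chosen genes. Further genes named were chosen after their values were seen. Positions are from GENCODE 44. Counting depth, 6979280 to 10962890 per library, limits transcripts near 1 CPM most. Some transcripts that this rule selects are not reported here.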

Additional observations from a re-analysis of the deposited data

Results flagged for a closer look

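Among 204 groups of 5 libraries checked (named transcripts and kinds of entries), 10 had a library whose gap to the others exceeded the critical value of Dixon's test (0.71). Chance gives about 1 in 20 for independent groups, but these groups are not independent, as shares of counts are parts of one total. The 10 were also not spread evenly over the libraries, since 6 of them were replicate 2 of day 10. In that library, C2CD4A was at 3.12 CPM (the others 4.81 to 5.20) and GARS at 631 CPM (556 to 569). Its shares of all counts were low, at 5.58% for retained introns (the others 6.54% to 6.74%), 2.72% for nonsense-mediated decay transcripts (2.84% to 2.88%), 2.33% for processed transcripts (2.68% to 2.74%) and 1.47% for lincRNA (1.81% to 1.92%). Replicate 5 of day 2 was highest for KRT6C at 13.1 CPM (11.3 to 11.8) and lowest for MT-ND6 at 1614 CPM (1873 to 1943). Replicate 1 of day 2 was lowest for ORC6 at 13.5 CPM (19.2 to 21.0). Replicate 5 of day 10 was highest for PSMA5 at 6.74 CPM (1.22 to 1.61).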

How the results depend on the processing

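Among counts of called transcripts, the fold cutoff moved the number by over 1.5 times. At 4-fold or more, 277 were called (180 higher, 97 lower), and with no cutoff 6353 (2968 higher, 3385 lower). The replicate block gave 1018 (576 higher, 442 lower), DESeq2 1023, the filter on low counts 890, all entries of a gene summed 1090 and library sizes without factors 1082 (532 higher, 550 lower). Replicate numbers were taken not to pair samples, though a weak pairing may remain. Deviations of same-numbered libraries correlated at −0.012 to 0.099 (median 0.040), and those of other numbers at −0.069 to 0.072 (median −0.0064). Of the 5 day 2 libraries, 3 correlated best with their own number. The replicate block above allows for such a pairing in the counts of called transcripts and list members. The exact permutation tests of shares took the libraries as unpaired, and a paired form was not run. Leaving out each library gave 1029 to 1109 (564 to 653 higher, 425 to 474 lower). Of the 27 gene lists, 25 kept the count in their more frequent direction within 1.5 times under every alternative run, the replicate block included, and the other direction was not recomputed. Of the mitochondrial genome messenger RNAs, 5 were higher with only days 2 and 10 fitted, and 2 to 5 with a library left out. Of the markers of other cells, 1 was lower with the filter on low counts. With a library left out, nonsense-mediated decay transcripts differed by 0.044 to 0.085 percentage points, processed transcripts by 0.14 to 0.27 and lincRNA by 0.10 to 0.21. Of 95 named transcripts, PSMA5 and PSMD9 reversed, neither of which had passed the threshold. PSMA5 was at −0.54 to 0.40 with a library left out (−0.54 without replicate 5 of day 10) and at −0.32 with all entries summed, and PSMD9 at −0.19 to 0.023. MT-ND3, NDUFS4 and PRIM1 passed the threshold, and XBP1 lost it, under some alternatives. The cause of these changes was not tested.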

Other observations

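Some transcripts had moved little from day 2 toward their day 10 level by day 8, or had moved away from it. Among called transcripts with a mean log2 CPM above 2 and groups apart, less than 25% of the day 2 to day 10 difference was present on day 8 in 6 of 282 that rose and in 8 of 306 that fell, and those named here were chosen after their values were seen. CDKN1C, an inhibitor of cyclin-dependent kinases, stood at 79.0, 85.8, 77.2 and 90.7 CPM on days 2, 4, 6 and 8 and at 32.9 CPM on day 10, where its libraries (31.5 to 34.2 CPM) lay below all of those of day 8 (70.5 to 120 CPM). PFKFB4, a regulator of glycolysis, was at 34.9, 48.6, 48.4 and 51.7 CPM and then at 15.3 CPM. PLXNA4, a semaphorin receptor, was at 29.1, 22.6, 25.7 and 40.6 CPM and then at 7.65 CPM. CXCL8 was at 24.1, 17.3, 20.7 and 21.7 CPM and then at 8.81 CPM. The 6 that rose had higher means on day 6 than on day 8. WARS, the tryptophanyl-tRNA synthetase, was at 77.0 CPM on day 2, 148 CPM on day 6, 90.8 CPM on day 8 and 178 CPM on day 10, and ALDH1L2, a mitochondrial enzyme of folate metabolism, at 15.4, 35.5, 20.0 and 44.7 CPM. The step from day 8 to day 10 was not tested here. A pair of transcripts outside the lists, also chosen after their values were seen, encode elongation factors of translation. EEF1A1, which brings tRNA to the ribosome, had 21453 ± 1986 CPM on day 2 and 35776 ± 2187 CPM on day 10 (0.74 on the log2 scale, SE 0.07), and EEF2, which drives translocation, 3620 ± 303 and 6721 ± 474 CPM (0.89, SE 0.06).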
